A study of Mus musculus with 4 samples.

Results

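The acinar digestive enzyme genes encode proteins that exocrine acinar cells of the pancreas make and secrete, with the proteins of their secretory granules and the transcription factors that drive these genes. The set held 31 genes chosen by symbol, and each was read from the array feature whose annotation gave that symbol alone. Of the 31 genes, 29 had such a feature, among 30176 genes measured in all. Pnlip, which encodes pancreatic lipase, had no such feature and is not described here. Try10, a trypsinogen gene, was named on a feature that it shares with Gm5409, whose signals were 17.5 at 11w in Tyk2-/- and 18.6 in Tyk2+/+ β-cells, and 18.0 at 6w in Tyk2-/- and 18.2 in Tyk2+/+ β-cells.

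Gene expression was measured in β-cells purified from female NOD mice, a strain in which autoimmune diabetes arises spontaneously, on Affymetrix Clariom D mouse arrays. There were 4 conditions with 1 array each, namely β-cells from 11-week-old (11w) Tyk2-/- mice, 11w Tyk2+/+ mice, 6-week-old (6w) Tyk2-/- mice and 6w Tyk2+/+ mice. TYK2 is a Janus kinase that signals downstream of type I interferon and several interleukin receptors. Each array held pooled cells of several mice, so the spread between mice was not measured and no difference below has a test. The Tyk2-/- mice carried a gene knockout in the whole animal, with a neomycin resistance cassette, which had been backcrossed from C57BL/6J mice to NOD/shiJcl mice. The Tyk2+/+ mice were wild type NOD mice. Islets had been isolated with collagenase and dissociated, and the sort kept live CD45-negative cells that took up FluoZin-3-AM, which stains zinc, and TMRE, which reports mitochondrial membrane potential. No acinar marker was part of that gate.

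Acinar cells fill most of the pancreas around the islets and release their enzymes through ducts into the gut. Proteases are made as inactive zymogens, packed with lipases, amylase and nucleases into zymogen granules, and switched on in the gut when enteropeptidase cleaves trypsinogen and trypsin cleaves the rest. Transcription of these genes is driven by the PTF1 complex, in which PTF1A and RBPJL act together and recognise an E-box next to a TC-box.

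To show the sequence next to the data, the 250 bases before the annotated start (RefSeq, GRCm38.p6) are given for genes called higher on the 11w Tyk2-/- array in at least 1 comparison (Clps is named only). Each is written on the gene's own strand, 5′ to 3′, and capitals mark matches on either strand to the E-box CACCTG or the TC-box TTTCCC. Sycn lies at chr7:28540635-28540884 (+), Gp2 at chr7:119459273-119459522 (-), Cela2a at chr4:141826006-141826255 (-), Ctrl at chr8:105933863-105934112 (-) and 2210010C04Rik at chr6:41035510-41035759 (-).
Sycn: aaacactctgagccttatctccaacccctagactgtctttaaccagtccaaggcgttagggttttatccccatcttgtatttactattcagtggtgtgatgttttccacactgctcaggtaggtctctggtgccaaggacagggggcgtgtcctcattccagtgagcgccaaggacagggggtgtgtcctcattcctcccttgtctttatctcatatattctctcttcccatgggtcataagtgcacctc
Gp2: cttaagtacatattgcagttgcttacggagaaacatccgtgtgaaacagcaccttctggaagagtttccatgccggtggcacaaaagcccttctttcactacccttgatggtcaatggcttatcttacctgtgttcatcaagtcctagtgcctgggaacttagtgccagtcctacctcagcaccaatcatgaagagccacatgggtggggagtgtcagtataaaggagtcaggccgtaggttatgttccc
Cela2a: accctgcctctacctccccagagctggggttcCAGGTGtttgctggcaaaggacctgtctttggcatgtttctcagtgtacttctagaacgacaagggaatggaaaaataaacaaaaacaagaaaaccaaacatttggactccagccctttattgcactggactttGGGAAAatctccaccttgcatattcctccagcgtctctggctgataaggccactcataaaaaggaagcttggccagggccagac
Ctrl: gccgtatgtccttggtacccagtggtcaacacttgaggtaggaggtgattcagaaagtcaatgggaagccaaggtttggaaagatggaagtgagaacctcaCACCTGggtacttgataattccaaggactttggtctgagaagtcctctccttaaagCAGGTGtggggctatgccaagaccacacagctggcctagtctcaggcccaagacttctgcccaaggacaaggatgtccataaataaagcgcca
2210010C04Rik: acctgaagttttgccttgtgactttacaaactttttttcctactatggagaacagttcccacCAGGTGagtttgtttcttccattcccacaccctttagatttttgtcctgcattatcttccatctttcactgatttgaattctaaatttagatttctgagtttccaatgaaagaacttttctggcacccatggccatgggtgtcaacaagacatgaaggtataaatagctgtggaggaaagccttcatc
The Cela2a window held 1 E-box and 1 TC-box, the Ctrl window 2 E-boxes and the 2210010C04Rik window 1 E-box. The Sycn and Gp2 windows held neither run of letters.

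Over the whole set, 25 of the 31 genes had an entry in the promoter table. The E-box letters were in 16 of these 25 windows (64%), against 5657 of the 32851 windows of that length in the table (17.2%). The TC-box letters were in 7 windows (28%), against 21.9% of all windows, and both, at any spacing, were in 5 (20%), against 3.61%. Both strands were searched, and no match of either motif was dropped for lying close to another. A match is a run of letters in this window and says nothing of binding.

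Signals are on a linear scale, and the median over all 65956 features was 17.5 on the 11w Tyk2-/- array, 17.3 on the 11w Tyk2+/+ array, 16.2 on the 6w Tyk2-/- array and 15.7 on the 6w Tyk2+/+ array. Most acinar genes lay close to these medians. Of the 29 genes, 15 were above the array median at 11w in Tyk2-/- and 10 in Tyk2+/+ β-cells, and 11 at 6w in Tyk2-/- and 15 in Tyk2+/+ β-cells. At least 2 times the array median was reached at 11w by 6 genes in Tyk2-/- and 3 in Tyk2+/+ β-cells, and at 6w by 4 genes in Tyk2-/- and 8 in Tyk2+/+ β-cells. The median gene stood at percentile 58.6 of all features at 11w in Tyk2-/- and 34.7 in Tyk2+/+ β-cells, and at percentile 43.5 at 6w in Tyk2-/- and 51.8 in Tyk2+/+ β-cells. Nothing in the deposited table says which features exceeded background, so for a gene near the median it is not known whether its RNA was detected. The PTF1 subunit genes Ptf1a and Rbpjl and the gene of the secretory cell factor MIST1, Bhlha15, all regulators of the acinar lineage, were below the array median on all 4 arrays, at 0.555 to 0.818 times it. On the same arrays the islet amyloid gene Iapp stood at the highest signal of each array, as did Gcg, Sst and Ppy of the other islet endocrine cells.

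**Figure D1:**
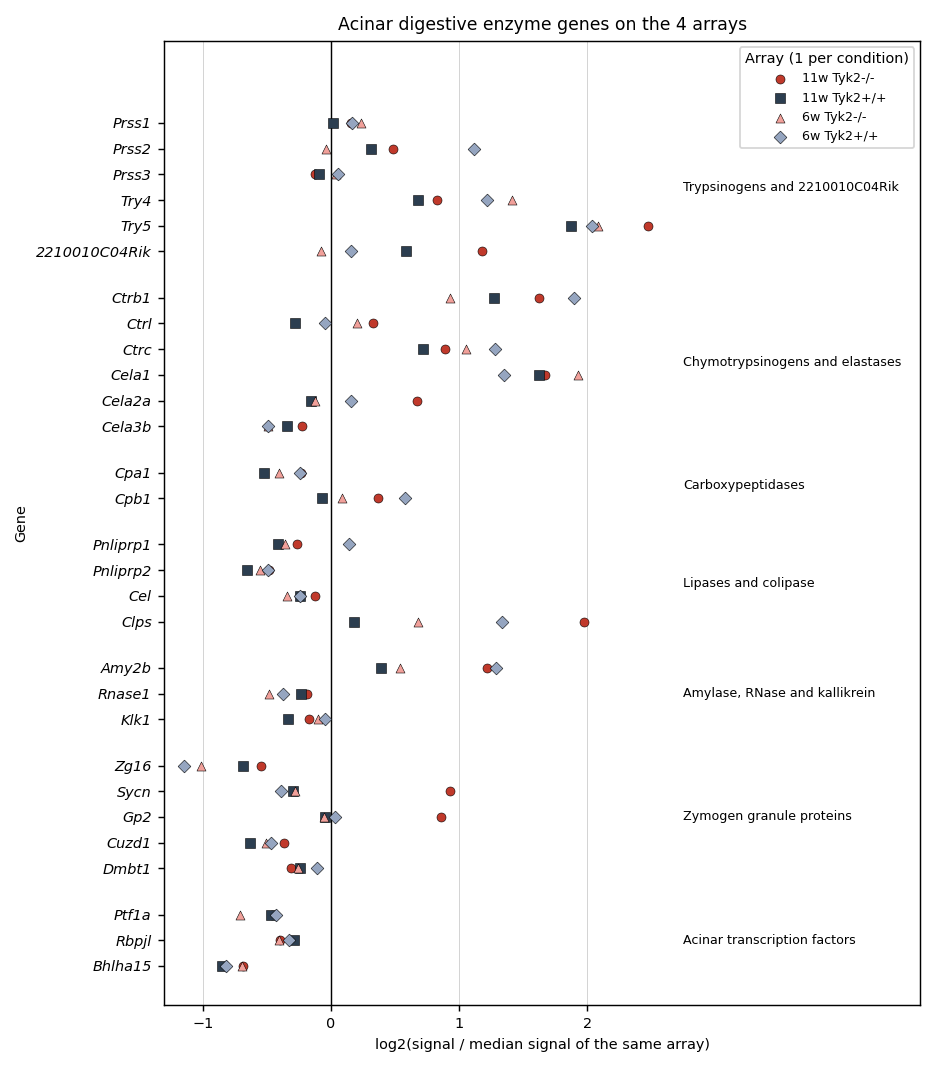
Signals of the 29 measured acinar genes, by role. The x axis is the log2 ratio of a gene's signal to the median signal of the same array, each symbol is 1 array and the vertical line marks the array median. Positions are to be compared between symbols of a gene and not between genes. The 3 transcription factor genes lie left of the median on every array, and the 11w Tyk2-/- symbols of Sycn, Gp2, Cela2a and Clps lie apart on the right.

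Differences between 2 arrays are given as log2 differences of the deposited signals. A gene was called higher where its ratio was above 1.5 and its Z score above 2, and lower where its ratio was below 0.66 and its Z score below -2. For the Z score, the 500 features on either side in mean signal were taken and a gene's log2 difference was set over the SD of theirs. It compares a gene with features of like signal on the same 2 arrays and carries no information on the spread between mice.

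In 11w β-cells, 5 of the 29 acinar genes were called higher in Tyk2-/- mice than in Tyk2+/+ mice, where the same call was made for 1.51% of all genes, and 0 were called lower, against 1.35% of all genes. They were Clps (colipase), Sycn (syncollin), Gp2 (glycoprotein 2), Cela2a (an elastase) and Ctrl (a chymotrypsin-like protease). In 6w β-cells, 0 genes were called higher in Tyk2-/- mice, against 1.26% of all genes, and 1 was called lower, the trypsinogen gene Prss2, against 1.09% of all genes. In 11w compared with 6w Tyk2-/- β-cells, 4 genes were called higher, against 1.62% of all genes, and 0 lower, against 1.36% of all genes. They were Sycn, Gp2, Cela2a and 2210010C04Rik. In 11w compared with 6w Tyk2+/+ β-cells, Zg16 alone was called higher, against 2.14% of all genes, and 0 genes were called lower, against 1.45%. A single call is 3.45% of the 29 genes, so the Prss2 and Zg16 calls are near the shares over all genes.

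Over all 29 genes the median log2 difference was 0.18 between 11w Tyk2-/- and 11w Tyk2+/+, against 0.01 over all genes, and 26 of the 29 differences were above 0, against 52.2% of all genes. The median was -0.04 between 6w Tyk2-/- and 6w Tyk2+/+, against 0.03 over all genes, with 11 differences above 0, against 55.8% of all genes. Between 11w and 6w Tyk2-/- β-cells it was 0.32, against 0.05 over all genes, with 25 above 0, against 58.8% of all genes. Between 11w and 6w Tyk2+/+ β-cells it was -0.01, against 0.07 over all genes, with 12 above 0, against 61.2% of all genes. The array medians themselves differ on the log2 scale, by 0.01 between the 11w genotypes, 0.05 between the 6w genotypes, 0.11 with age in Tyk2-/- and 0.15 with age in Tyk2+/+ β-cells. With each array set to its median, the acinar medians were 0.17 between the 11w genotypes, -0.09 between the 6w genotypes, 0.21 with age in Tyk2-/- and -0.16 with age in Tyk2+/+ β-cells. The signs were the same as before, while setting signals below the array median to that median turned the 6w genotype and the Tyk2+/+ age medians positive, at 0.05 and 0.15. Those values are the shifts between the array medians, which this setting gives to any gene dim on both arrays. The 4 comparisons share arrays in pairs, so the 11w genotype and the Tyk2-/- age values both rest on the single 11w Tyk2-/- array.

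**Figure D2:**
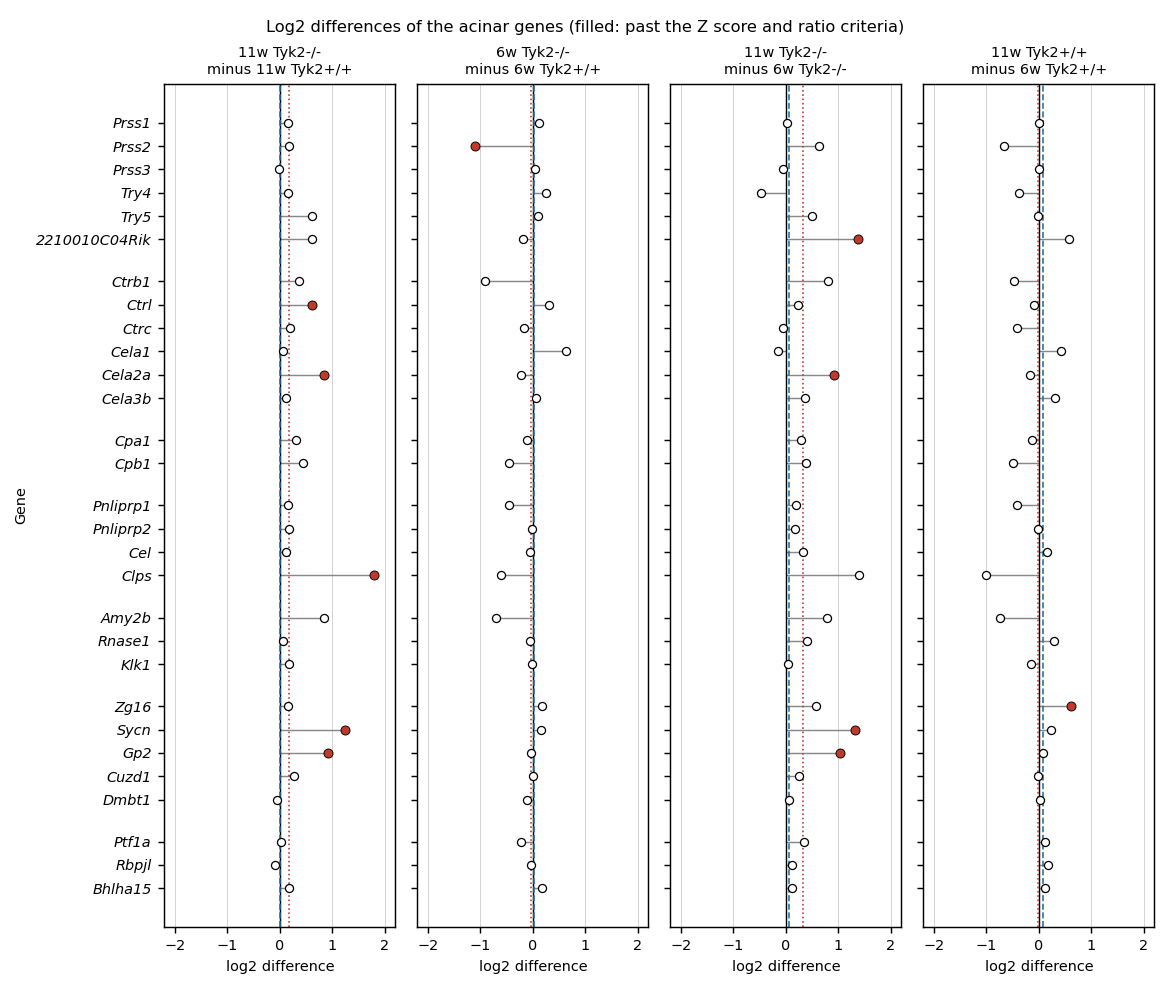
Log2 differences of the 29 acinar genes in the 4 comparisons, 1 panel each, with a positive value meaning higher in the first-named condition. Filled points passed both the Z score and the ratio limits, the dotted line is the median of the acinar genes and the dashed line that of all genes. The acinar median is 0.18 in the 11w genotype panel and 0.32 in the Tyk2-/- age panel.

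The deposited signal of 19 of the 29 genes was highest on the 11w Tyk2-/- array, of 2 on the 11w Tyk2+/+ array, of 3 on the 6w Tyk2-/- array and of 5 on the 6w Tyk2+/+ array. Over all genes, 33.1% were highest on the 11w Tyk2-/- array, 29.8% on the 11w Tyk2+/+ array, 19.4% on the 6w Tyk2-/- array and 17.6% on the 6w Tyk2+/+ array. With each array set to its median, 15 acinar genes (51.7%) were highest on the 11w Tyk2-/- array, against 20.7% of all genes, and 10 (34.5%) on the 6w Tyk2+/+ array, against 33.5% of all genes. On that scale the 11w Tyk2+/+ array held the highest signal of 1 acinar gene, against 20.6% of all genes, and the 6w Tyk2-/- array that of 3, against 25.3%. The genotype difference was above 0 at 11w and below 0 at 6w for 16 of the 29 genes (55.2%), as it was for 21.7% of all genes, and the reverse held for 1 gene (3.45%), as it did for 25.9% of all genes. With each array set to its median, the first count was 17 genes (58.6%), against 27.0% of all genes.

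Trypsin starts the cascade of pancreatic zymogens, and the mouse genome holds many near-identical trypsinogen genes on a single chromosome. Signal from a given copy may therefore hold RNA of another copy, and the identity of each is uncertain. The chromosome also holds 2210010C04Rik, which the tables used here annotate by this identifier alone. The 6 measured genes of this group were highest on different arrays, with Prss1, Try5 and 2210010C04Rik highest in 11w Tyk2-/-, Prss3 and Try4 in 6w Tyk2-/- and Prss2 in 6w Tyk2+/+ β-cells.

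2210010C04Rik had signals of 39.6 at 11w in Tyk2-/- and 26.0 in Tyk2+/+ β-cells, and 15.3 at 6w in Tyk2-/- and 17.4 in Tyk2+/+ β-cells. Both 11w arrays were above both 6w arrays, and the 6w signals were near the array medians. It rose with age in Tyk2-/- β-cells, with a log2 difference of 1.37 (ratio 2.58, Z score 2.97). With age in Tyk2+/+ β-cells its log2 difference was 0.57 (Z score 1.39), and between the 11w genotypes it was 0.61 (Z score 1.08).

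Prss2 had signals of 24.4 at 11w in Tyk2-/- and 21.6 in Tyk2+/+ β-cells, and 15.8 at 6w in Tyk2-/- and 34.0 in Tyk2+/+ β-cells. The 6w arrays held both the lowest and the highest signal, with the 11w arrays between them. It was lower in 6w Tyk2-/- than in 6w Tyk2+/+ β-cells, with a log2 difference of -1.11 (ratio 0.465, Z score -2.71). The other differences were 0.18 between the 11w genotypes, 0.63 with age in Tyk2-/- and -0.65 with age in Tyk2+/+ β-cells.

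Try5 had signals of 97.3 at 11w in Tyk2-/- and 63.7 in Tyk2+/+ β-cells, and 68.6 at 6w in Tyk2-/- and 64.2 in Tyk2+/+ β-cells. The 11w Tyk2-/- array stood above the other 3, which were close to each other, and the log2 difference between the 11w genotypes was 0.61 with a Z score of 0.64. Try4 had signals of 31.004 at 11w in Tyk2-/- and 27.8 in Tyk2+/+ β-cells, and 43.1 at 6w in Tyk2-/- and 36.3 in Tyk2+/+ β-cells. Here both 6w arrays were above both 11w arrays, with log2 differences of -0.48 with age in Tyk2-/- and -0.39 with age in Tyk2+/+ β-cells and neither called. Prss1 and Prss3 stayed between 0.915 and 1.18 times the array median, with differences from -0.06 to 0.15.

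Chymotrypsins and elastases cut proteins at other residues than trypsin and, like trypsin, are made as zymogens. Of the 6 genes in this group, Cela2a and Ctrl were called at 11w and Cela2a also with age in Tyk2-/- β-cells. Cela2a, which encodes a pancreatic elastase, had signals of 27.9 at 11w in Tyk2-/- and 15.6 in Tyk2+/+ β-cells, and 14.8 at 6w in Tyk2-/- and 17.5 in Tyk2+/+ β-cells. The 11w Tyk2-/- array stood above the other 3, which lay within 0.898 to 1.12 times their array medians. It was higher in 11w Tyk2-/- than in 11w Tyk2+/+ β-cells (log2 difference 0.84, ratio 1.79, Z score 2.19) and than in 6w Tyk2-/- β-cells (0.91, ratio 1.88, Z score 2.33). Its window above is the only printed one with both motifs.

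Ctrl had signals of 21.9 at 11w in Tyk2-/- and 14.3 in Tyk2+/+ β-cells, and 18.7 at 6w in Tyk2-/- and 15.2 in Tyk2+/+ β-cells. Both Tyk2-/- arrays were above both Tyk2+/+ arrays. The 11w genotype difference of 0.62 (ratio 1.53, Z score 2.10) was just inside both limits, while the 6w genotype difference was 0.30 with a Z score of 0.92. The call of Ctrl was lost under 4 of 8 other settings, among them quantile normalization. The 8 include the mean over the features of a gene, which leaves acinar signals unchanged. They also include leaving out dim features, which kept Ctrl only through its 11w Tyk2-/- array.

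Ctrb1, the chymotrypsinogen B gene, had signals of 53.9 at 11w in Tyk2-/- and 42.0 in Tyk2+/+ β-cells, and 30.8 at 6w in Tyk2-/- and 58.3 in Tyk2+/+ β-cells. As for Prss2, the lowest and the highest signal were those of the 6w arrays, but the 6w genotype difference of -0.92 had a Z score of -1.22 and was not called. Ctrc, whose product chymotrypsin C cleaves trypsinogen, had signals of 32.4 at 11w in Tyk2-/- and 28.5 in Tyk2+/+ β-cells, and 33.6 at 6w in Tyk2-/- and 38.0 in Tyk2+/+ β-cells, and its largest difference was -0.41 with age in Tyk2+/+ β-cells.

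Cela1 had signals of 55.5 at 11w in Tyk2-/- and 53.5 in Tyk2+/+ β-cells, and 61.8 at 6w in Tyk2-/- and 39.9 in Tyk2+/+ β-cells. Its 6w Tyk2+/+ signal was the lowest, and the 6w genotype difference was 0.63 with a Z score of 0.73. Cela3b stayed at 0.710 to 0.854 times the array median, with differences from 0.05 to 0.37. The carboxypeptidase genes Cpa1 and Cpb1, whose products trim the carboxyl ends of peptides, had signals from 12.1 to 23.4 and differences from -0.50 to 0.45, and neither was called. For both, the difference was above 0 between the 11w genotypes and with age in Tyk2-/- β-cells, and below 0 in the other 2 comparisons.

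Pancreatic lipase needs colipase, the product of Clps, to work on fat droplets coated with bile salts. Clps had signals of 68.6 at 11w in Tyk2-/- and 19.7 in Tyk2+/+ β-cells, and 26.0 at 6w in Tyk2-/- and 39.5 in Tyk2+/+ β-cells. The 11w arrays held the highest and the lowest signal, and the 11w Tyk2+/+ signal was 1.14 times the array median. It was higher in 11w Tyk2-/- than in 11w Tyk2+/+ β-cells, with a log2 difference of 1.80 (ratio 3.48, Z score 2.79). With age its differences were 1.40 in Tyk2-/- β-cells (Z score 1.84) and -1.01 in Tyk2+/+ β-cells (Z score -1.82), and between the 6w genotypes -0.61 (Z score -1.13), none of them called. The Tyk2+/+ age difference was called lower once the arrays were set to their medians.

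The other genes of this group were dim. Pnliprp1 and Pnliprp2, which encode lipase-related proteins, and Cel, which encodes bile salt-activated lipase, had signals from 11.0 to 17.3, at 0.636 to 1.10 times the array median, with differences from -0.45 to 0.32. None of the 3 was called.

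Amy2b, a pancreatic amylase gene, had signals of 40.7 at 11w in Tyk2-/- and 22.8 in Tyk2+/+ β-cells, and 23.6 at 6w in Tyk2-/- and 38.2 in Tyk2+/+ β-cells. The 11w Tyk2-/- and 6w Tyk2+/+ arrays were both above the other 2. Its log2 differences were 0.84 between the 11w genotypes (Z score 1.64), -0.70 between the 6w genotypes (-1.33), 0.79 with age in Tyk2-/- (1.36) and -0.75 with age in Tyk2+/+ β-cells (-1.34), and none was called. Amylase genes are near-identical copies, so the feature may hold signal from others. A feature annotated to 5 Amy2a copies at once had signals of 49.6 at 11w in Tyk2-/- and 26.5 in Tyk2+/+ β-cells, and 24.7 at 6w in Tyk2-/- and 43.1 in Tyk2+/+ β-cells, and again the 11w Tyk2-/- and 6w Tyk2+/+ arrays were above the other 2. Rnase1, a secreted ribonuclease, and Klk1, tissue kallikrein, had signals from 11.6 to 15.5 and differences from -0.15 to 0.41.

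Zymogen granule proteins surround the stored enzymes. Sycn and Gp2 were the genes of this group with calls at 11w and with age in Tyk2-/- β-cells. Sycn, whose product syncollin lines the inner side of the granule membrane, had signals of 33.3 at 11w in Tyk2-/- and 14.1 in Tyk2+/+ β-cells, and 13.4 at 6w in Tyk2-/- and 11.9 in Tyk2+/+ β-cells. The 11w Tyk2-/- array alone was above its array median, at 1.91 times it, and the other 3 were at 0.763 to 0.825 times theirs. Sycn was higher in 11w Tyk2-/- than in 11w Tyk2+/+ β-cells (log2 difference 1.24, ratio 2.37, Z score 3.21) and than in 6w Tyk2-/- β-cells (1.32, ratio 2.49, Z score 3.57). Its other differences were 0.16 between the 6w genotypes and 0.24 with age in Tyk2+/+ β-cells.

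Gp2, the major glycoprotein of the granule membrane, had signals of 31.8 at 11w in Tyk2-/- and 16.8 in Tyk2+/+ β-cells, and 15.6 at 6w in Tyk2-/- and 16.0 in Tyk2+/+ β-cells. The 3 lower arrays were at 0.961 to 1.02 times their array medians. Gp2 was higher in 11w Tyk2-/- than in 11w Tyk2+/+ β-cells (log2 difference 0.92, ratio 1.89, Z score 2.44) and than in 6w Tyk2-/- β-cells (1.03, ratio 2.04, Z score 2.62). Its differences were -0.04 between the 6w genotypes and 0.07 with age in Tyk2+/+ β-cells. Of the windows printed above, those of Sycn and Gp2 are the ones without E-box or TC-box letters.

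Zg16, a lectin of the granule, was the dimmest of the genes with a call, with signals of 12.0 at 11w in Tyk2-/- and 10.8 in Tyk2+/+ β-cells, and 8.0 at 6w in Tyk2-/- and 7.1 in Tyk2+/+ β-cells. All 4 signals were below the array medians, and both 11w arrays were above both 6w arrays. Its age difference was called higher in Tyk2+/+ β-cells (0.61, ratio 1.52, Z score 2.74) and missed the ratio limit in Tyk2-/- β-cells (0.58, Z score 2.54), and the Tyk2+/+ call was lost once the arrays were set to their medians, at 0.46. Cuzd1, another granule membrane protein, and Dmbt1, a secreted scavenger receptor, had signals from 11.2 to 14.7 and differences from -0.10 to 0.27. The 3 transcription factor genes had signals from 8.89 to 14.2 and differences from -0.23 to 0.35, and none was called in any comparison.

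**Figure D3:**
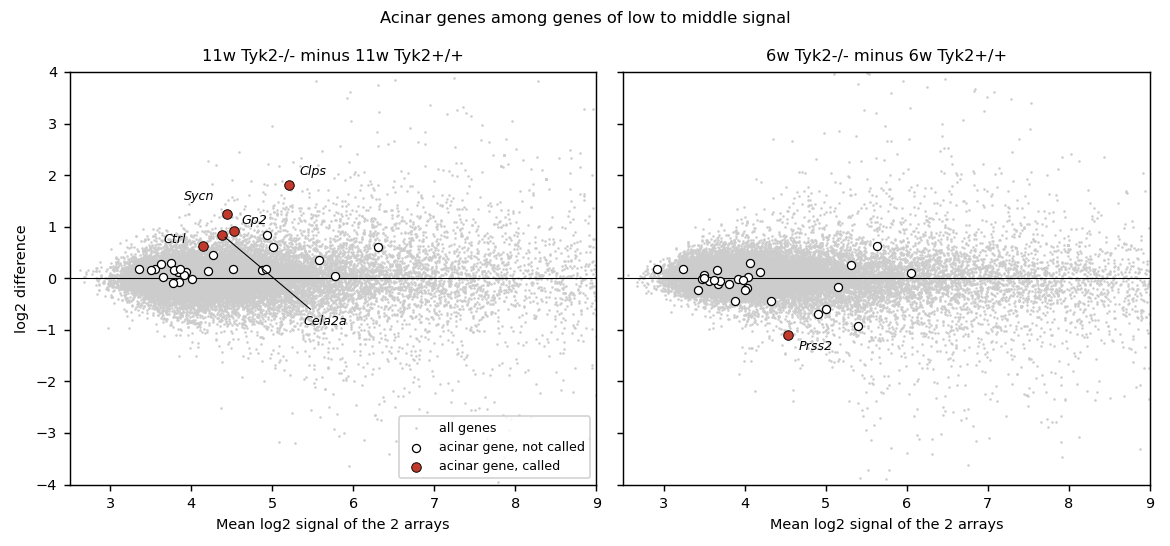
Log2 difference (y axis) against the mean log2 signal of the 2 arrays (x axis) for the genotype comparison at 11w and at 6w. Grey points are all genes within the plotted range, open points acinar genes without a call and filled points acinar genes with a call. Clps, Sycn, Gp2, Cela2a and Ctrl are filled at 11w with differences of 0.62 to 1.80, and Prss2 is filled at 6w with -1.11.

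Of 31 further acinar genes (enzyme inhibitors, other enzyme copies, granule transport and receptor genes), 21 were measured, and 0 were called in any of the 4 comparisons. Over all genes, 1.09% to 2.14% were called per comparison and direction, so a count of 0 is near those shares. Vamp8 among them stood at 70.7 to 82.6 times the array median, while the median gene of the 21 stood at 0.823 to 0.938 times it. Their median log2 differences were 0.11 between the 11w genotypes (0.01 over all genes) and 0.02 between the 6w genotypes (0.03 over all genes). With age they were 0.19 in Tyk2-/- (0.05 over all genes) and 0.05 in Tyk2+/+ β-cells (0.07 over all genes). In bulk RNA, fewer acinar cells in a pool and less acinar RNA per cell cannot be told apart.

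Single markers of other cells were called in some of the same comparisons, and their part in the acinar differences was not tested. Over all genes, 1.09% to 2.14% were called per comparison and direction. Of 10 measured β-cell markers, Mafa was higher in 11w Tyk2-/- β-cells (18.8, against 12.4 in 11w Tyk2+/+). These signals were 1.08 and 0.716 times the array medians, and the call was just inside both limits (ratio 1.52, Z score 2.04). The list's median between the 11w genotypes was 0.45, with 8 of 10 differences above 0. Ucn3 was lower in 6w Tyk2-/- (22.0, against 1067 in 6w Tyk2+/+), as were G6pc2 (95.4, against 605) and Pcsk1 (27.3, against 101), with a list median of -0.49. Ucn3 (22.4, against 1067), G6pc2 (87.5, against 605) and Slc2a2 (21.7, against 79.1) were also lower in 11w than in 6w Tyk2+/+ β-cells, with a list median of -0.94.

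Of 13 measured duct markers 0 were called, and their median difference between the 11w genotypes was -0.01, with 6 of 13 above 0. Their summed signal was 1138 at 11w in Tyk2-/- and 865 in Tyk2+/+ β-cells, and 1146 at 6w in Tyk2-/- and 1075 in Tyk2+/+ β-cells. Krt8 (306, against 149) and Krt18 (251, against 99.0) carried the gap between 11w Tyk2-/- and 11w Tyk2+/+ β-cells. The summed signal of the 29 acinar genes was 796 at 11w in Tyk2-/- and 583 in Tyk2+/+ β-cells, and 586 at 6w in Tyk2-/- and 643 in Tyk2+/+ β-cells. No signal in the table was 0. Of 9 measured fibroblast markers, whose summed signal ran from 9403 to 19387, Dpt was lower in 6w Tyk2-/- (345, against 2577 in 6w Tyk2+/+) and higher in 11w than in 6w Tyk2-/- β-cells (4756, against 345). Lum, not called, went the other way in both (508, against 197, and 158, against 508). The fibroblast list median was -0.09 between the 6w genotypes, with 2 of 9 above 0, against 0.03 and 55.8% over all genes. With age in Tyk2-/- β-cells it was 0.11, with 7 of 9 above 0, against 0.05 and 58.8% over all genes. Of 10 measured endothelial markers, whose summed signal ran from 143 to 170.1, Plvap was higher in 11w Tyk2-/- than in 11w Tyk2+/+ β-cells (17.3, against 10.3) and than in 6w Tyk2-/- β-cells (17.3, against 10.5). All 4 Plvap signals were below the array medians. The endothelial list median was -0.007 between the 11w genotypes, with 4 of 10 above 0, against 0.01 and 52.2% over all genes. With age in Tyk2-/- β-cells it was 0.21, with 10 of 10 above 0, against 0.05 and 58.8% over all genes. Of 14 measured leukocyte markers, whose summed signal ran from 199 to 248, Cd48 was lower in 11w Tyk2-/- than in 11w Tyk2+/+ β-cells (14.9, against 30.0) and higher in 11w than in 6w Tyk2+/+ β-cells (30.0, against 14.2). The leukocyte list median was -0.007 between the 11w genotypes, with 7 of 14 above 0, against 0.01 and 52.2% over all genes. With age in Tyk2+/+ β-cells it was 0.19, with 12 of 14 above 0. Of 8 markers of α-, δ- and PP-cells 0 were called, and Gcg, Sst and Ppy cannot show a change at the top of the scale.

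**Figure D4:**
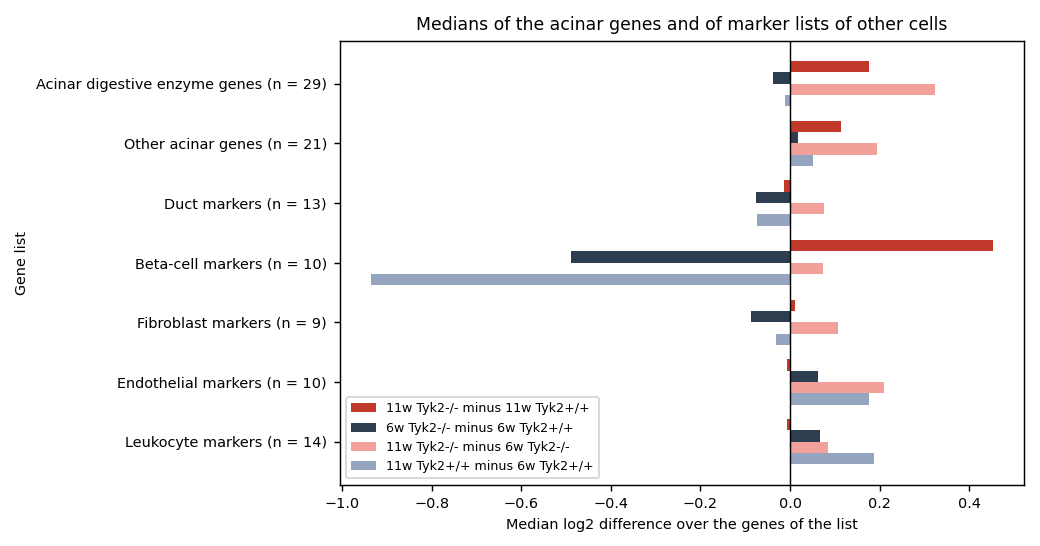
Median log2 difference over the measured genes of each list (x axis) for the acinar genes, further acinar genes and marker lists of other cells (y axis), with 1 bar per comparison. The acinar medians are 0.18, -0.04, 0.32 and -0.01 from the top bar down, and the β-cell marker bars reach 0.45 and -0.94.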

How the data were processed

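RNA of each of 4 pools had been amplified and labelled with the GeneChip WT Pico kit and hybridised to 1 Clariom D array per condition. The values deposited by the authors are normalized intensities in a single table, for which Affymetrix Expression Console is named in the submitters' processing notes. Background correction and normalization are not given in the sources used here. That the intensities are linear follows from their range. Arrays have no read depth, and their number limits the precision. GEO's platform annotation named a single gene on 30638 of the 65956 features, more than 1 on 2176 and no gene on 33142, and the last 2 kinds name no gene here. The array build is not named, so genes have no coordinates. Coordinates belong to the RefSeq promoters (GRCm38.p6). Of 354 genes with several features, the feature of highest mean signal was used, and no acinar gene was among them.

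Log2 differences, Z scores and calls were computed with Python 3.11.15, NumPy 2.4.6 and pandas 2.3.3, and plots drawn with matplotlib 3.10.9. The Z score and ratio limits are those of the study, whose methods print the ratio signs the other way round and give no calculation of the Z score, so they were read as above 1.5 and below 0.66. The calling rule was run on simulated pairs of arrays, which does not test the calls made here. The members and lists were chosen with earlier results of these data known. Values on every array are given for each gene at 2 times the array median or more on at least 1 array or called in at least 1 comparison, and by range for the others, and marker lists name up to 4 called genes. The alternatives were arrays set to their medians, quantile normalization, a Z score window of 100 features, 1 SD for all features, a ratio above 2 or below 0.5 alone, leaving out or flooring dim features, and the mean over the features of a gene.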

Additional observations from a re-analysis of the deposited data

Results flagged for a closer look

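For 3 genes, 1 of 2 matched comparisons gave a ratio above 1.5 and the other a ratio below 0.66, and each difference between them was not tested because each condition has 1 array. The age differences of Prss2 were 0.63 in Tyk2-/- and -0.65 in Tyk2+/+ β-cells, 1.28 apart on the log2 scale. For Clps, the genotype differences were 1.80 at 11w and -0.61 at 6w, 2.41 apart, and the age differences were 1.40 in Tyk2-/- and -1.01 in Tyk2+/+ β-cells, which is the same 2.41 since it comes from the same 4 signals. For Amy2b, the genotype differences were 0.84 at 11w and -0.70 at 6w, and the age differences 0.79 in Tyk2-/- and -0.75 in Tyk2+/+ β-cells, 1.54 apart in either form. Of these, the Clps difference at 11w was called and the others were not.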

How the results depend on the processing

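No replicate could be left out, since each condition has 1 array. Clps at 11w, Prss2 at 6w, 2210010C04Rik with age in Tyk2-/- β-cells and Sycn in both of its comparisons were called under all 8 other settings. Among these, the mean over the features of a gene is no check on the acinar calls. No acinar gene has several features, so it leaves their signals unchanged. Leaving out dim features kept Sycn, Gp2, Cela2a, Ctrl, 2210010C04Rik and Prss2 only through the higher array, so it is no check on their calls. The Gp2 and Cela2a calls were lost with 1 SD for all features, and those at 11w, with the Cela2a age call, also with the ratio limit alone, and Cela2a at 11w with the floor. A window of 100 features also called Amy2b higher at 11w, and 1 SD, the ratio alone and the floor also called Clps higher with age in Tyk2-/- β-cells. The number of genes called higher at 11w was 2 with 1 SD (2.03% of all genes), 2 with the ratio alone (2.06%) and 3 with dim signals floored (0.766%), against 5 (1.51%). Zg16 was not called with centred or quantile-normalized arrays, 1 SD, the ratio alone or a floor, which left 0 genes higher with age in Tyk2+/+ β-cells, as did leaving out dim features. With centred arrays, quantile normalization or the ratio alone, 1 gene, Clps, was called lower there. The Tyk2-/- age median was 0.21 centred, 0.22 quantile-normalized, 0.57 without dim features and 0.11 floored. The Tyk2+/+ age median was -0.16, -0.15, -0.39 and 0.15 under these settings, and the last of these turned its sign. Without dim features, which keeps genes through the array where they are high and left 15 or 16 of 29, the genotype medians were 0.61 at 11w and -0.18 at 6w, and floored they were 0.053 at 11w and 0.049 at 6w, which turned the sign at 6w. The floored medians other than that of the 11w genotypes equal the shift between the array medians. Genes near the array median have differences of uncertain size.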
